A study of Mus musculus with 8 samples.

Results

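The 10 genes described here are the core pluripotency factors Pou5f1, Sox2 and Nanog and the naive pluripotency factors Klf2, Klf4, Klf5, Esrrb, Zfp42, Tfcp2l1 and Tbx3. They were taken by name from a table of 18694 features, of which 17597 were genes and 1097 were subfamilies of transposable elements, and all 10 names were in it. RNA came from mouse embryonic stem cells (mES cells) of a Cast x 129S background with 2 X chromosomes. In these cells METTL3, which catalyses the methylation of RNA to N6-methyladenosine (m6A), carries the FKBP12F36V tag, at its C terminus in the 2 clones used. The small molecule dTAG-13 binds this tag and recruits the machinery that degrades the protein. One group of 4 libraries received dTAG-13 for 26 h and the other group of 4 was untreated, and 2 replicates of clone C3 and 2 of clone H5 made up each group. Both groups carry the tag, and both carry a TetOn promoter in place of the endogenous Xist promoter, which the labels place on the 129S allele and the study's text on the Cast X chromosome. This conflict was not resolved here. Doxycycline was given to neither group. All cells grew in serum with LIF on mitomycin-inactivated mouse fibroblasts, so feeder RNA can be present in every library, and the cell lines are 2 single clones.

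Core and naive factors are transcription factors that hold mouse ES cells in the undifferentiated state. Pou5f1 (OCT4) and Sox2 bind DNA side by side at many enhancers, Nanog is a homeobox factor that joins them there, and the naive factors bind many of the same regions and act downstream of LIF, WNT and related signals. Cells that leave the naive state lose Klf2, Klf4, Esrrb, Zfp42, Tfcp2l1 and Tbx3 early, while Pou5f1 and Sox2 persist into the epiblast.

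The level given for each gene is the authors' mean over all libraries, in which the read count of each library was divided by the size factor of that library. It is called the mean count below, and it mixes treated and untreated cells in one value. Values for single libraries were not analysed here, so no spread between replicates and no difference between dTAG-13 and untreated cells is given, and the levels are a description with no test. Levels of different genes were compared per kb of annotated exon, the total length covered by the exons of the gene in GENCODE vM21 on the GRCm38 build. Percentiles are shares of the 17366 genes with a known length that lay below the gene. None of these genes was without reads (lowest 0.0209 per kb), so percentiles rank detected genes and not all annotated genes. In bulk RNA, fewer cells of a type and less RNA per cell cannot be told apart.

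The 8 size factors could be read back from the lowest values of the table, without the names of the libraries they belong to, and they ran from 0.702 to 1.44. With those factors, all 506 features with a mean count of at most 0.6 were sums of whole reads within a tolerance of 1e-06. The search picked the factors to explain as many of these same values as possible, so that number is no independent check. If every library held the same scaled level, counting error alone would be 0.327% of the mean for Pou5f1 and 1.34% for Klf5, the most and the least abundant of the 10 by mean count. Differences between cultures are not part of that figure.

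Together the 10 factors held a summed mean count of 49374, or 0.339% of the total over all genes. Their median level was 1022 per kb, against 39.9 per kb for all genes with a length, and their median percentile was 94.9. Of the 10, 7 lay in the top 10% of genes. None had a mean count under 100, whereas 7535 of the 17366 genes did.

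**Figure D1:**
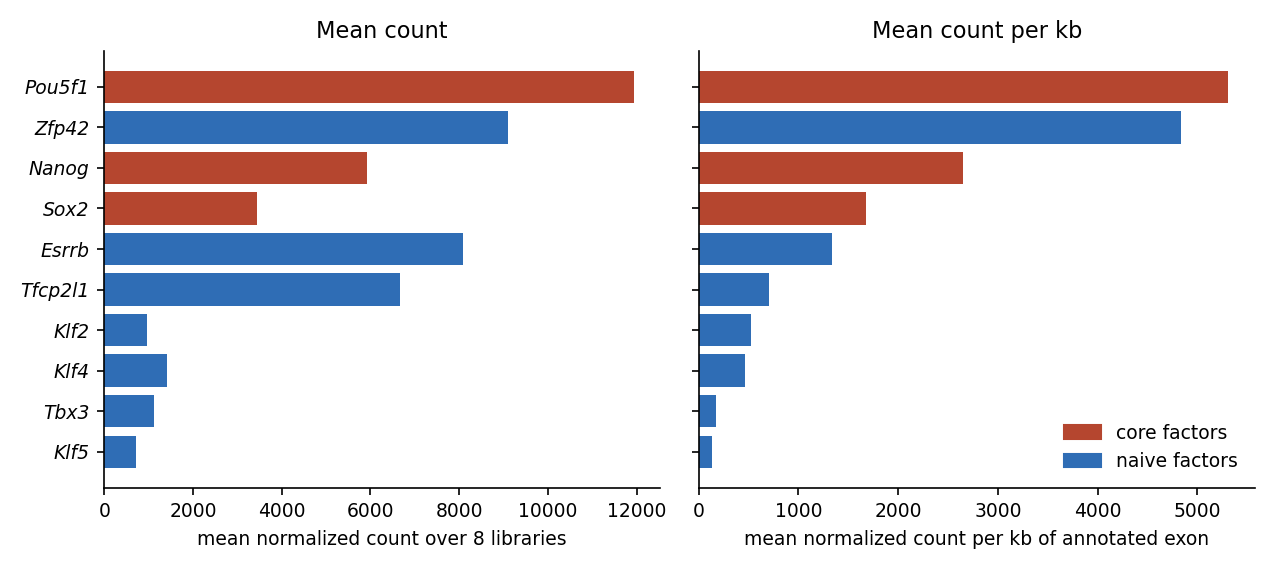
Bars show the mean normalized count over all 8 libraries (left) and the same per kb of annotated exon (right) for each factor, with core factors in red and naive factors in blue. Esrrb and Tfcp2l1 exceed Sox2 by mean count (8081 and 6673 against 3444) and stand below it per kb (1336 and 707 against 1674).

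All 3 core factors were at percentile 97.6 or above. Pou5f1, which lies at chr17:35506018-35510772 on the plus strand and encodes the POU-domain factor OCT4, had a mean count of 11934 and a level of 5309 per kb. It ranked 93 among all genes, at percentile 99.5. Its union of exons over 6 annotated transcripts is 2248 bases long, and against the longest single transcript of 1362 bases its level was 8762 per kb. Nanog, at chr6:122707489-122714633 on the plus strand, had a mean count of 5933 and a level of 2646 per kb, at percentile 98.6. Sox2 is a single exon of 2057 bases at chr3:34650405-34652461 on the plus strand. It had a mean count of 3444 and a level of 1674 per kb, at percentile 97.6. Over the union of exons, Pou5f1 was 2.01 times as high as Nanog and 3.17 times as high as Sox2 per kb, and with the longest transcripts these ratios were 3.27 and 5.23. Nanog was 1.58 times as high as Sox2.

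The promoters of the core factors are shown because they hold letters of the elements that these factors and KLF or SP proteins recognise. Each line gives the 250 bases before a RefSeq start (GRCm38.p6), 5′ to 3′ on the strand of the gene, with matches in capitals. The matches marked are the octamer core TTTGCAT, bound by POU factors, the SOX letters ACAAAG and the GC box GGGCGG, each on either strand.
Nanog, chr6:122707239-122707488, plus strand: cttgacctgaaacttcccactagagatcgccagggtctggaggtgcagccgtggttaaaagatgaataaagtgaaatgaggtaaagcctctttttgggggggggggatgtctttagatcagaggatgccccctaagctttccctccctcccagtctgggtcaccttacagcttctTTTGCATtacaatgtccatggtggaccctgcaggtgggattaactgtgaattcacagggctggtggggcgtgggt
Sox2, chr3:34649745-34649994, plus strand: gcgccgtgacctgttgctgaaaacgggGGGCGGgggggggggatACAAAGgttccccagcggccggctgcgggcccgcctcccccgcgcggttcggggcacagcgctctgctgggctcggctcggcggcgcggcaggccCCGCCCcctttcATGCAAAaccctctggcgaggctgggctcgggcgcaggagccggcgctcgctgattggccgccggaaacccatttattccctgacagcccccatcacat
Pou5f1, chr17:35505782-35506031, plus strand: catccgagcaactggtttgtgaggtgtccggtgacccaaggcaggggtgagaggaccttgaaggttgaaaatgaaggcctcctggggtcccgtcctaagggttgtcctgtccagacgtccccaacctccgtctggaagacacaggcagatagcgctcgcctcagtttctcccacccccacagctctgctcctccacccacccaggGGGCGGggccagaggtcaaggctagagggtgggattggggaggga

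In the Nanog promoter the octamer core began at position −75 from the start of the first window and −151 from that of the second. The letters ACAA followed it after 1 base. Among all 32851 promoter windows of the table, 1520 (4.63%) held the octamer core on either strand, and 12 (0.0365%) held it followed by ACAA at that distance. Of those 12 windows, 2 were the overlapping Nanog windows, which hold the same element. This spacing was looked for after the sequence had been seen, so its share is a description and no evidence of a bound site. POU and SOX factors are known to bind as a pair at such neighbouring letters. In the Sox2 promoter the octamer core stood on the opposite strand at position −99, ACAAAG stood at −206, and GC boxes stood at −223 and −111. The RefSeq start used for Sox2, chr3:34649995, lies upstream of the start in GENCODE, chr3:34650405. These positions therefore depend on the start chosen. The first Pou5f1 window held a GC box at −45 and no other motif searched, and the second, whose start lies inside the gene at chr17:35508807, held none.

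Zfp42 (REX1), a zinc finger protein derived from a YY1-like ancestor and used as a marker of the naive state, was the highest naive factor. Its gene at chr8:43295063-43306980 on the minus strand had a mean count of 9104 and a level of 4840 per kb, at percentile 99.4. Per kb, Pou5f1 exceeded Zfp42 by a factor of 1.10 over the union of exons, and the 95% interval from counting error alone was 1.09 to 1.11. The ratio depended on the length chosen for Pou5f1, and it was 1.77 with the longest transcript, 1.07 with the coding length and 1.31 by mean count. Esrrb, an orphan nuclear receptor at chr12:86361117-86521628 on the plus strand, had a mean count of 8081, which only Pou5f1 and Zfp42 exceeded, and a level of 1336 per kb over 6047 bases of annotated exon. Its percentile was 96.8. Tfcp2l1, a grainyhead-related factor downstream of LIF, lies at chr1:118627945-118685168 on the plus strand. It had a mean count of 6673, spread over 9438 bases of exon, which gave 707 per kb and percentile 92.9. Tbx3, a T-box factor at chr5:119670669-119684724 on the plus strand, was the lowest of these 4 genes, with a mean count of 1117, a level of 169 per kb and percentile 74.4.

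The 3 Krüppel-like factors, zinc finger proteins that bind GC-rich and CACCC letters and overlap in function, were among the 4 lowest of the 10 by mean count, with Tbx3. Klf2, at chr8:72319033-72321656 on the plus strand, had a mean count of 967 and a level of 524 per kb, at percentile 90.5. Klf4, at chr4:55527143-55532466 on the minus strand, had a mean count of 1415 and a level of 464 per kb, at percentile 89.1. Klf5, at chr14:99298691-99315036 on the plus strand, had a mean count of 706 and a level of 136 per kb, at percentile 70.4. Which of Klf2 and Klf4 stood higher depended on the scale. The ratio of Klf4 to Klf2 was 1.46 by mean count, 0.886 per kb of exon and 1.07 per kb of coding length. Klf5 was below both on each of these scales. Klf4 exceeded it 3.42-fold per kb of exon, 2.00-fold by mean count and 1.85-fold per kb of coding length. Klf2 exceeded it 3.86-fold per kb of exon, 1.37-fold by mean count and 1.73-fold per kb of coding length.

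From highest to lowest per kb, the order was Pou5f1, Zfp42, Nanog, Sox2, Esrrb, Tfcp2l1, Klf2, Klf4, Tbx3 and Klf5. Pou5f1 was 39.1 times as high as Klf5 per kb of exon, 21.4 times per kb of coding length and 16.9 times by mean count. The ratio of one factor to the next ran from 1.10 (Pou5f1 to Zfp42) to 2.75 (Klf4 to Tbx3). The closest neighbours after Pou5f1 and Zfp42 were Klf2 and Klf4, at 1.13, then Tbx3 and Klf5, at 1.24, and Sox2 and Esrrb, at 1.25. Counting error alone left none of the 9 ratios at 1, but whether any neighbours differed beyond the spread between cultures was not tested, since that needs values per library. With the longest transcript as the length, 8 of the 10 kept their place, and Esrrb (1879 per kb) stood above Sox2 (1674 per kb). With the coding length, only Pou5f1, Zfp42 and Nanog kept theirs, at 11301, 10537 and 6484 per kb. Tfcp2l1 reached 4643 per kb of coding length, above Sox2 at 3599.

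**Figure D2:**
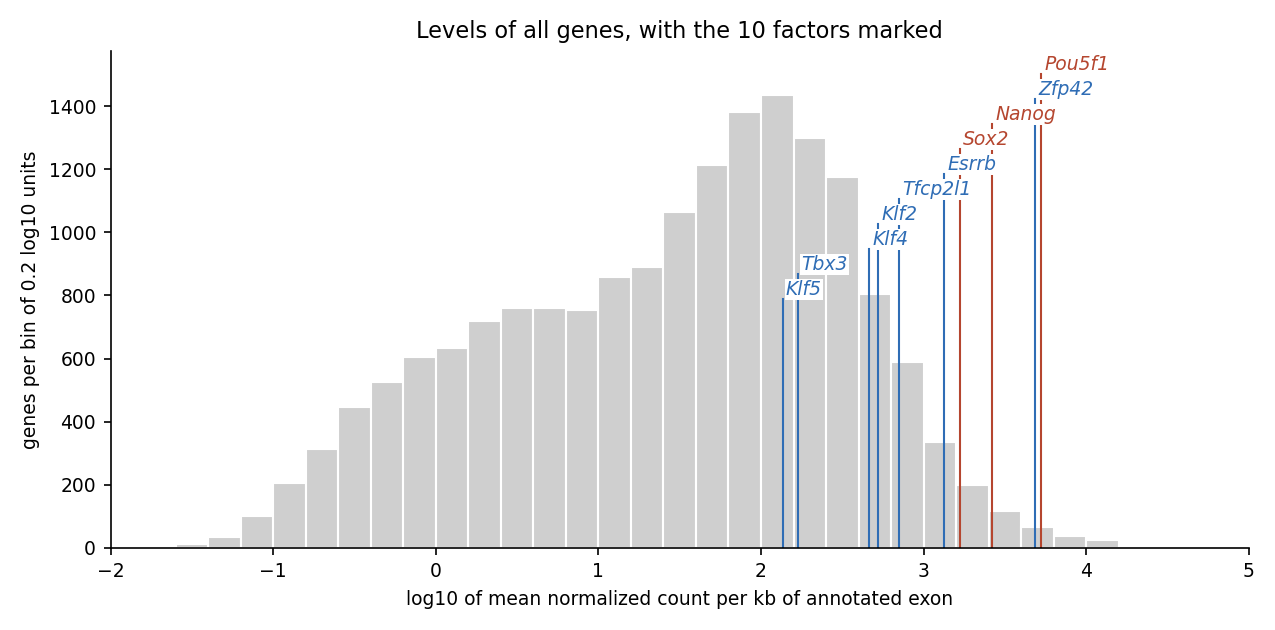
Grey bars count genes by the log10 of mean normalized count per kb of annotated exon, in bins of 0.2, over the 17366 genes with a length. Lines mark the 10 factors (core factors in red, naive factors in blue), which lie between Klf5 at 136 per kb and Pou5f1 at 5309 per kb, to the right of the median of 39.9 per kb; line height has no meaning.

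The promoters of 4 naive factors are shown next, since they carry the full octamer, KLF, STAT, E-box and TATA box letters. The lines follow the same form, and capitals mark the octamer ATGCAAAT, its core TTTGCAT, the KLF letters GGGTGTG, the GC box GGGCGG, the STAT letters TTCNNNGAA, the E-box CACGTG and the TATA box TATAAA, on either strand.
Zfp42, chr8:43307010-43307259, minus strand: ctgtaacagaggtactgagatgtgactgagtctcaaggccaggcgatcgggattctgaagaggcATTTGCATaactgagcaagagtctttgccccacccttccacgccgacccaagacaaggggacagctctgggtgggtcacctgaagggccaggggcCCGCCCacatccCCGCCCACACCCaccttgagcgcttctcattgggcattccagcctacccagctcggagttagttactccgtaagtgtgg
Esrrb, chr12:86360867-86361116, plus strand: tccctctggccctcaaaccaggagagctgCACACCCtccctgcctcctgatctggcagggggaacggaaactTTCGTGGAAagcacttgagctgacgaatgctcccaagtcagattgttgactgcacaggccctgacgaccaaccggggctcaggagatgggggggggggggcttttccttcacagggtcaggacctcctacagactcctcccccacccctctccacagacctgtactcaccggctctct
Klf4, chr4:55532476-55532725, minus strand: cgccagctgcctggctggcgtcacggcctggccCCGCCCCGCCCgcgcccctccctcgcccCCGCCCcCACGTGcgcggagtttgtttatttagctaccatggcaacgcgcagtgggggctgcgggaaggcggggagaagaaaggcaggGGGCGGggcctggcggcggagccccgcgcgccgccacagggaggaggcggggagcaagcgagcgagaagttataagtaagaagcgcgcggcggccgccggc
Tfcp2l1, chr1:118627695-118627944, plus strand: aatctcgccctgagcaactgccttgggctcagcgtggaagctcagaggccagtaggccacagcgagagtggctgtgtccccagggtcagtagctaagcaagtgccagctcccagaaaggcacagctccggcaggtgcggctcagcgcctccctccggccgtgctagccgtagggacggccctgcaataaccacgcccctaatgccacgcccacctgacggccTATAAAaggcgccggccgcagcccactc

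The Zfp42 promoter held the full octamer at −186 on the opposite strand, which contains the core match at −185, and the KLF letters at −74, which share 1 base with the GC box at −79. A further GC box stood at −91. The RefSeq start used for Zfp42, chr8:43307009, lies upstream of its GENCODE start, chr8:43306980. In the first of 2 Esrrb windows the KLF letters began at −221 and the STAT letters, the kind of element through which LIF signals, at −178. The other Esrrb window, at chr12:86421394-86421693, held no motif searched. The Klf4 promoter held GC boxes at −217, −212, −189 and −101, of which the first and the next share 1 base, and an E-box at −182. The TATA box of Tfcp2l1 stood at −28, near where TATA boxes lie in promoters that use one. Klf2 held GC boxes at −214 and −195.

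**Figure D3:**
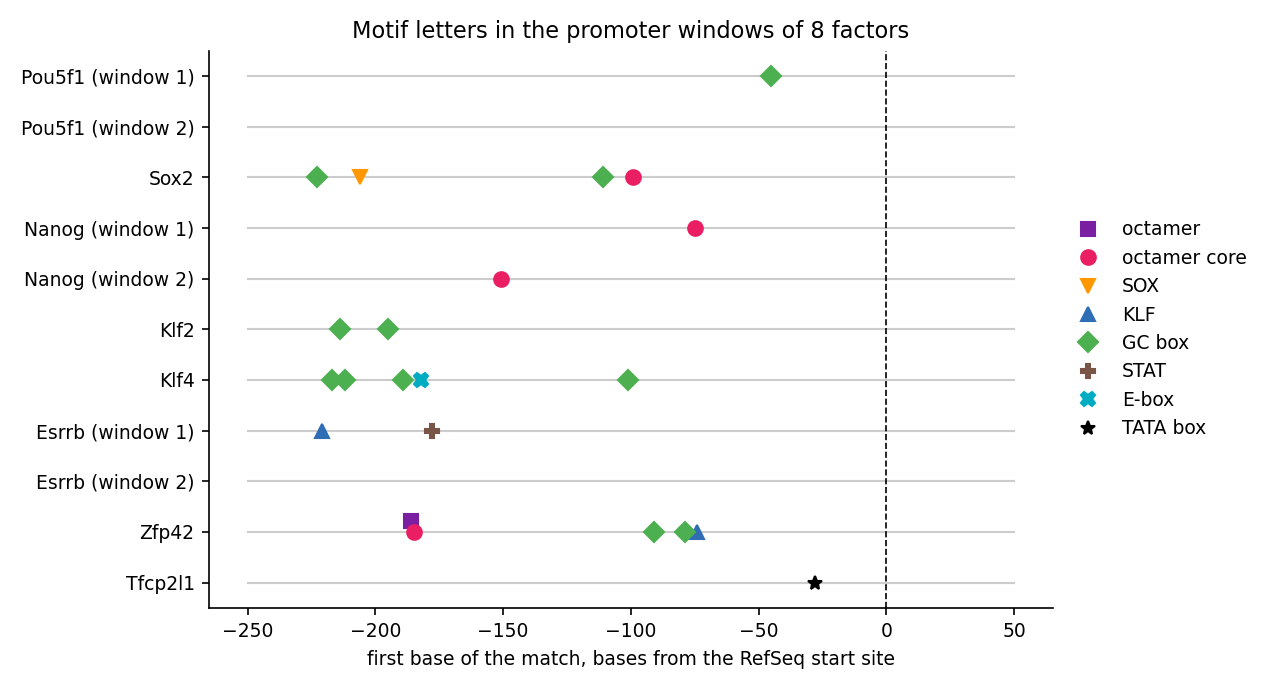
Each grey line is one RefSeq promoter window, from 250 bases before to 50 after the start site (dashed line), and each symbol marks the first base of a motif match on either strand, in bases from the start. Octamer cores appear in Nanog, Sox2 and Zfp42, GC boxes in Pou5f1, Sox2, Klf2, Klf4 and Zfp42, and the second windows of Pou5f1 and Esrrb are empty.

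The promoter table held 11 windows for 8 of the 10 genes: Pou5f1, Nanog and Esrrb have 2 each, and those of Nanog overlap. The octamer core was in 3 of the 8 genes (Nanog, Sox2 and Zfp42), in 4 of their 11 windows and in 4.63% of all windows. Both Nanog windows hold the same match. Each other motif found was in as many of the 11 windows as genes. The full octamer was in Zfp42 and in 1.74% of all windows. The GC box was in 5 of the 8 (Klf2, Klf4, Pou5f1, Sox2 and Zfp42) and in 35.7% of all windows. The KLF letters were in 2 (Esrrb and Zfp42) and in 7.95% of windows. The SOX letters were in Sox2 and in 18.7% of windows, the STAT letters in Esrrb and in 8.30%, the E-box in Klf4 and in 7.15%, and the TATA box in Tfcp2l1 and in 13.6%. The ESRR letters AAGGTCA (4.72% of windows) and the TBX letters AGGTGTG (5.84%) were in none of the 8. A match is a description of the letters and not a bound site, and many elements of these genes lie in enhancers outside the windows.

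The windows also differed in base composition. Klf4 had the highest share of G and C, 74.3%, and 40 CpG dinucleotides, above 96.1% of all windows in CpG number. Klf2 followed with 69.3% and 32 CpGs, Sox2 with 66.3% and 27, and Tfcp2l1 with 65.3% and 21. The fewest CpGs, 4, were in each of the Nanog windows, followed by the second Pou5f1 window with 6 and the Esrrb windows with 7 each. The second Pou5f1 window had the lowest share of G and C, 45.7%. The median of all windows was 52.7% G and C and 7 CpGs.

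Against their own relatives, 6 of the 7 families had a core or naive factor above the next gene with each length tried, and the Klf family did not. No family was set for Nanog, so it was not part of this comparison. Pou5f1 made up 95.5% of the summed level per kb of the 14 Pou genes in the table, 50.8 times as high as Pou2f1 (105 per kb), a broadly expressed POU factor. The ratio to Pou2f1 was 15.5 per kb of coding length and 6.88 by mean count. Esrrb made up 97.0% of the 3 estrogen-related receptors, and Esrra was at 41.1 per kb. Zfp42 made up 89.6% of the sum with Yy1 and Yy2 and stood 12.4 times as high as Yy1 (390 per kb), or 5.23 times per kb of coding length and 3.64 times by mean count. Tbx3 was 18.9 times as high as Tbx20 (8.95 per kb) and held 86.0% of the 11 T-box genes named Tbx, of which 7 of the other 10 had mean counts under 10. Its ratio to Tbx20 was 6.25 per kb of coding length and 10.4 by mean count. Tbx3, low among the 10 factors, was the only Tbx gene with a mean count above 1000.

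Sox2 made up 75.7% of the 19 Sox genes, 7.07 times as high as Sox15 (237 per kb). Per kb of coding length Sox4 was next, and Sox2 was 11.0 times as high. Of the other 18 Sox genes, 13 had mean counts under 100. Tfcp2l1 held 55.9% of its family of 6, and Ubp1, a ubiquitous relative, was next at 257 per kb, with Tfcp2l1 2.75 times as high per kb of exon, 6.15 times per kb of coding length and 5.45 times by mean count. In the Klf family of 17, Klf2, Klf4 and Klf5 together held 34.7%. Klf2 was the highest of the 17 per kb of exon, but Klf9 was close at 476 per kb, and Klf10 (426 per kb), Klf8 (371 per kb) and Klf6 (348 per kb) also had mean counts above 1000. The mean counts of Klf9 (2294), Klf8 (1931), Klf10 (1781) and Klf6 (1527) were higher than that of Klf4 (1415). Klf5 was in place 8 per kb of exon. Klf10 exceeded Klf2 with the longest transcript as the length, and Klf9 exceeded each Klf factor described here by mean count and per kb of coding length.

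**Figure D4:**
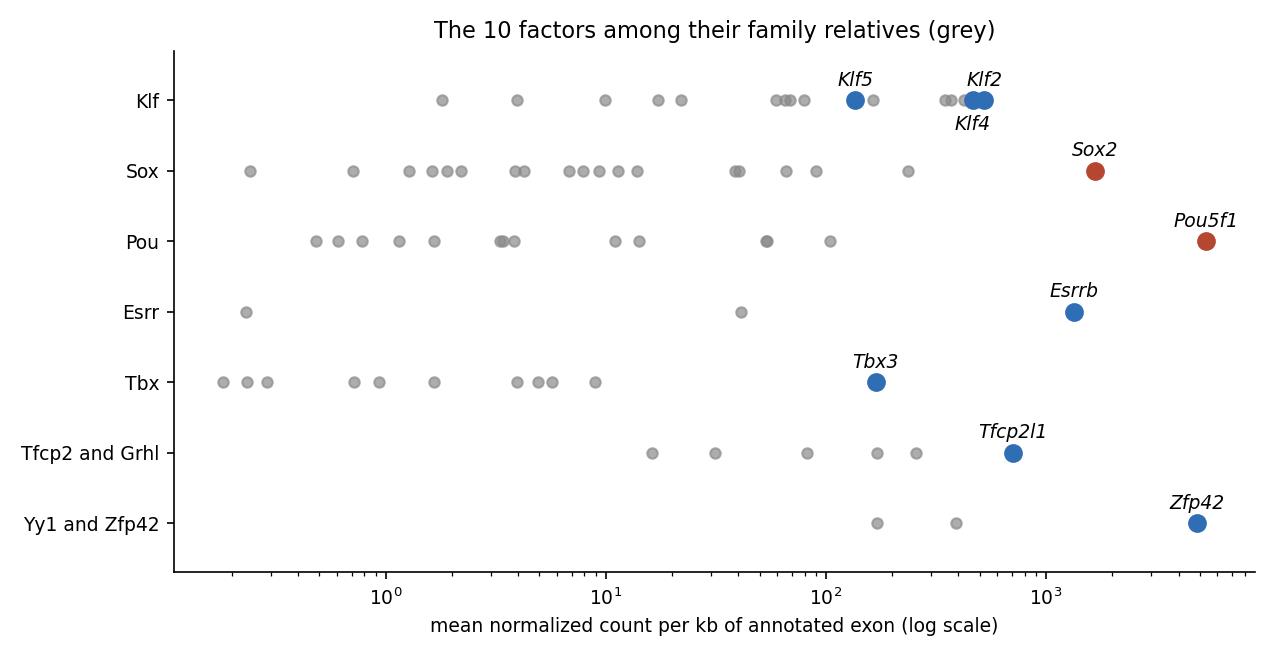
Each point is a gene of the named family at its mean normalized count per kb of annotated exon (log scale), with relatives in grey, core factors in red and naive factors in blue. Each factor drawn outside the Klf row stands to the right of its relatives. In the Klf row Klf9, Klf10, Klf8 and Klf6 lie beside Klf2 and Klf4. Nanog is not drawn, as no family was set for it.

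Accessory pluripotency genes stood about as high, and a separate list of partners and coactivators of the factors also stood high. The 20 accessory pluripotency genes had a median of 777 per kb (median percentile 93.7), and 15 of the 20 lay in the top 10%. Dppa5a, an RNA-binding protein of the early embryo, was highest at 16142 per kb, above every core and naive factor. It was followed by the corepressor Trim28 (4534 per kb) and the Nodal co-receptor Tdgf1 (3430 per kb), and the homeobox gene Gbx2 was lowest at 108 per kb. The 13 partners and coactivators of the factors had a median of 534 per kb (median percentile 90.6), and 7 of the 13 lay in the top 10%. Wdr5, a subunit of histone H3 lysine methyltransferase complexes, was highest (1228 per kb), then the chromatin remodeller Chd4 (1137 per kb) and the cohesin subunit Smc1a (1026 per kb), and the Mediator subunit Med12 was lowest (91.1 per kb).

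Genes of later stages were lower by median, but some of them exceeded some of the factors. The 11 formative and primed genes, which rise when cells leave the naive state, had a median of 91.7 per kb (median percentile 63.4). Dnmt3b, a de novo DNA methyltransferase, was the only one of them in the top 10%, at 919 per kb, above Tfcp2l1, Tbx3 and the 3 Klf factors. Krt18 (305 per kb) and the homeobox factor Otx2 (291 per kb) stood above Tbx3 and Klf5. Sox3, the lowest, was at 13.8 per kb. Fgf5, a marker of the primed epiblast, was at 91.7 per kb.

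Most lineage markers lay below the median of all genes, and Krt8, Eomes, Nes and T lay above it. Median levels per kb were 4.95 over 7 endoderm genes, 20.3 over 5 genes of mesoderm and streak, 4.36 over 5 trophoblast genes and 15.7 over 4 neural genes, and no gene of these lists lay in the top 10%. Among endoderm genes Dab2 (22.1 per kb), Foxa2 (10.2 per kb) and Sox7 (7.91 per kb) were highest and Gata6 (1.24 per kb) lowest. Of the mesoderm and streak genes, Eomes was at 74.0 per kb, T at 43.6, Gsc at 20.3 and Mesp1 at 0.952. Trophoblast genes ran from Elf5 (0.352 per kb) through Hand1 (4.36 per kb) and Gata3 (5.89 per kb) to the keratin Krt8 (435 per kb), which simple epithelia express as well. Neural genes ran from Sox1 (4.26 per kb) through Pax6 (9.39 per kb) and Map2 (22.1 per kb) to Nes (69.2 per kb). Lhx1 of the mesoderm list and Neurog2 of the neural list were looked for by name and had no value, so the list medians leave them out.

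The 16 fibroblast feeder markers had a median of 34.6 per kb. Of them, 3 lay in the top 10% of genes and 8 had mean counts under 100. Lgals1 (1077 per kb), S100a6 (922 per kb) and Sparc (806 per kb) were highest, and Postn was lowest at 0.0882 per kb. Members of the list went both ways. Vim was at 437 per kb and Fn1 at 423 per kb, while the fibrillar collagens were at 3.02 per kb for Col1a1, 1.11 for Col1a2 and 0.853 for Col3a1. The part of feeder RNA in the levels of the 10 factors was not tested.

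**Figure D5:**
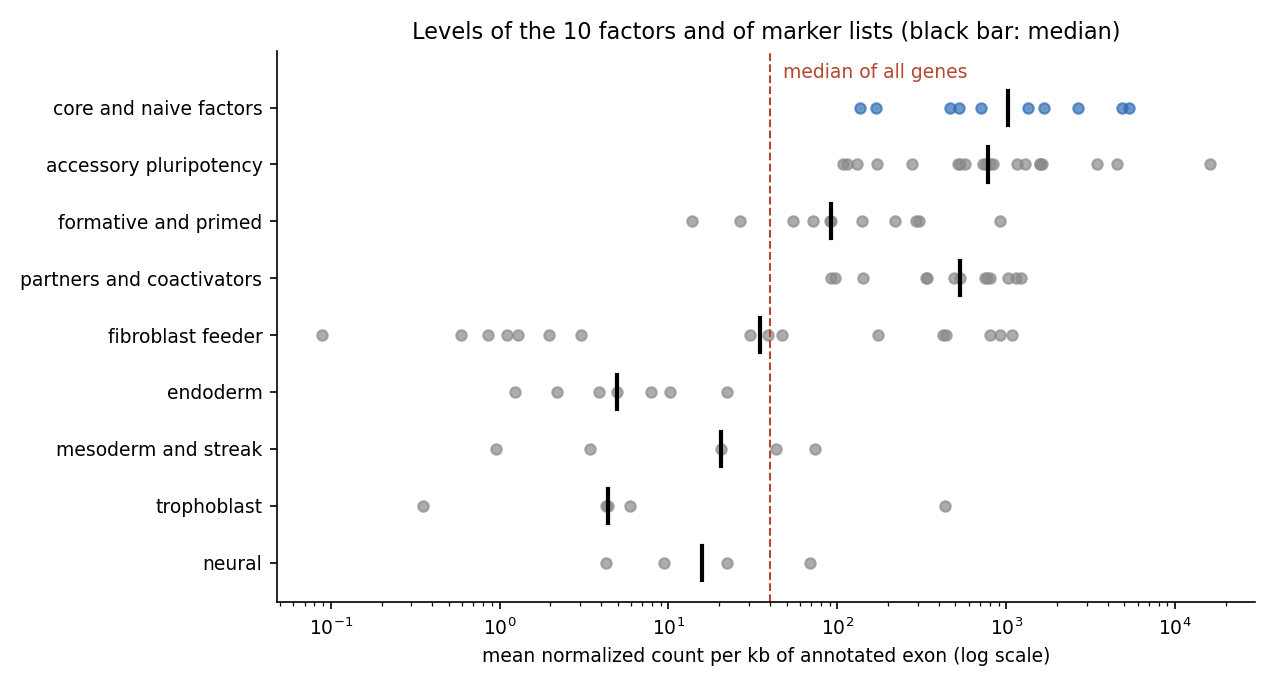
Each point is a gene at its mean normalized count per kb of annotated exon (log scale), each row is a gene list, black bars are list medians and the dashed line is the median of all genes (39.9 per kb). Medians are 1022 per kb for the core and naive factors, 777 for the accessory genes and 91.7 for the formative and primed genes. Points of these lists overlap, and the 4 lineage lists have medians under the dashed line.

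Since the study removes the m6A writer, the letters GGACT, the commonest form of the sequence at which METTL3 methylates, were counted in the longest transcript of each gene. A match is not a methylated site, and m6A itself was not measured in these libraries. The median over the 10 factors was 1.43 GGACT per kb, against 1.04 over the 17366 genes, of which 8.28% held none. Nanog had the highest density, 1.81 per kb (4 matches in 2211 bases), then Tfcp2l1 at 1.73 (16 matches in 9269 bases), Klf4 at 1.65, Esrrb at 1.63 (7 matches), Sox2 at 1.46 and Tbx3 at 1.41. Zfp42 was near the median at 1.09, and Klf5 (0.895), Pou5f1 (0.734) and Klf2 (0.541) were below it, the last 2 with 1 match each.

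Where the matches lay differed between genes. Esrrb held 5 of its 7 in the coding part, at 3.81 per kb. That was above 97.3% of the coding parts of the 14034 genes whose longest transcript has one. All 3 matches of Sox2 and 13 of the 16 of Tfcp2l1 were in the 3′ UTR. Neither Sox2 nor Zfp42 had any in the coding part, like 24.8% of those 14034 genes. In coding parts alone, the median of the 10 was 1.16 per kb against 1.05 for those 14034 genes. The 5 coding matches of Esrrb are given because no other factor has as many in its coding part. Each line shows 12 bases on either side, with the match in capitals, and its position is counted from the first coding base of the longest GENCODE transcript.
Esrrb, coding position 183: cgccaacggtctGGACTcgccgcctatgt
Esrrb, coding position 246: caagagctacgaGGACTgtactagtggta
Esrrb, coding position 270: tggtatcatggaGGACTccgccatcaaat
Esrrb, coding position 924: ggcatacgccgaGGACTatatcatggatg
Esrrb, coding position 1140: cgaggcgctgcaGGACTatgagctgagtc

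Parts of some transcripts were not unique to their gene. Windows of 81 bases, the read length, from the longest transcript of each factor were searched for in the transcripts of all other genes, on both strands. Because only unique alignments were kept, read pairs lying wholly in a stretch with an identical copy elsewhere in the genome would have been dropped. A pair that reached outside such a stretch could still align uniquely, and how many reads were dropped is not known. Sox2, Klf2, Klf4, Klf5 and Esrrb had none that recurred. For Pou5f1, 135 of 1282 windows (10.5%) recurred in Gm19553, which lies antisense to it and shares 317 bases of exon. For Zfp42 the share was 3.81%, with the pseudogene Zfp42-ps1, and for Nanog 1.36%, with Nanog-ps1. Tbx3 shared 0.734% with its antisense gene Tbx3os1, and Tfcp2l1 shared 0.544% with a small nuclear RNA gene, Gm23497, inside it. Gm19553, Tbx3os1 and Gm23497 overlap the exons of these factors in the genome and are not copies elsewhere, unlike Zfp42-ps1 and Nanog-ps1. Sox2 lies within Sox2ot, on the same strand, with no shared exon base, and Sox2ot had a mean count of 42.4. Whether strand was used in the counting is uncertain, so reads from the exon bases that Pou5f1 and Tbx3 share with their antisense partners, 14.1% and 1.74% of the exon length of each, may not be told apart by gene. Neither antisense gene had a mean count of its own.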

How the data were processed

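Total RNA was depleted of ribosomal RNA, made into stranded libraries and sequenced as read pairs of 81 bases. The molecule label and the study's methods give total RNA, although the labels' extraction protocol is one for chromatin. The authors removed ribosomal reads with bowtie2, aligned the rest with STAR to mm10 masked at strain variants, kept unique alignments, removed duplicates with Picard and counted genes and transposable elements with TEtranscripts. One value per feature was used, a signal deposited as the mean over all 8 libraries of counts divided by size factors. The 5 other columns hold the authors' comparison (fold change, standard error, statistic and p-values) and were not used. A count test was planned in case counts per library were given, and none was run.

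Symbols were matched to GENCODE vM21, directly for 16660 genes and through older symbols for 722. A length was found for 17366 genes (98.7%), and genes without one were left out of comparisons per kb. Size factors were recovered from low values by a search that was tested on simulated data. Promoter windows came from RefSeq (GRCm38.p6), and motifs were counted with Python 3.11.15 and pandas 2.3.3. The members and lists were chosen with earlier results of these data known. Named genes were the 10 factors; in each family the highest other gene and any with a mean count of at least 1000; and in each list the 3 highest and the lowest. Fgf5, the collagens, Vim and Fn1 were added after their values were seen. Lengths, denominators, a minimum mean count of 10 and motif windows were varied. Protein sequences were not analysed here.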

Additional observations from a re-analysis of the deposited data

How the results depend on the processing

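The share of reads held by the 10 factors was 0.339% of all genes and 0.303% when transposable elements joined the denominator. Leaving genes with mean counts under 10 out of the denominator gave 0.339%. The number of factors in the top 10% was 7 in the union of exons and 6 with the longest transcript, the coding length, no length, or no genes with mean counts under 10, since Klf2 fell below that line in each. In the order of the factors, 8 of 10 places were kept with the longest transcript and 3 with the coding length. Over these alternatives 30 of 40 percentiles were lower and 10 higher, by at most 11.7 points. Leaving out genes with mean counts under 10 could only lower a percentile, since every factor lay above that minimum. Klf2 ranged from 78.8 to 90.5, Klf5 from 61.8 to 73.2 and Tbx3 from 66.9 to 81.3, while Pou5f1, Zfp42 and Nanog stayed above 97. Of the families, the ratio of the highest Klf factor to the highest other Klf gene turned from 1.10 to 0.895 with the longest transcript, 0.312 with the coding length and 0.617 with no length, alternatives chosen after seeing the data. In the other 6 families the factor stayed highest under each. With motifs counted on the given strand only, the octamer and the KLF letters were found in 0 of the 8 genes. Counting before the start only changed no number of genes. GGACT density was 1.43 per kb in whole transcripts and 1.16 in their coding parts. The planned coding length from protein residues was replaced by annotated coding exons. No paired analysis was possible because the one value used per gene is a mean over all libraries; for the same reason, leaving out replicates, other scalings and count tests were not run, and the spread between cultures limits every ratio by an amount that is unknown here.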
